A study of Mus musculus with 4 samples.

Results

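The genes described here belong to the unfolded protein response and the integrated stress response, and they were chosen by name as 10 of the 20637 genes that the arrays measured with a named probe. One branch of 5 genes consists of Atf4 and its targets Ddit3, Trib3, Chac1 and Asns. The other branch of 5 genes covers the endoplasmic reticulum (ER) side, with the transcription factor Xbp1 and the chaperone and degradation genes Hspa5, Sdf2l1, Herpud1 and Dnajb9. All were matched by transcript accession and were read by 12 probes, 2 each for Atf4 and Dnajb9 and 1 for every other gene. Where a gene had several probes, the one with the highest mean over the arrays stands for it, and the other is given beside it. Of the 10 genes, 9 were above background on all 4 arrays, and Chac1 was above it on 3.

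The RNA was that of dendritic cells sorted by flow cytometry from the lamina propria, the connective tissue beneath the epithelium, of the colon of C57BL/6J mice. The 4 groups were wild-type (WT) and CD300a-deficient (KO) mice raised specific pathogen-free (SPF), and WT and KO mice raised germ-free (GF), with 1 array for each group and 5 mice per condition as the source of cells. CD300a is an inhibitory surface receptor that binds phosphatidylserine on dying cells. Whether the deficiency was confined to any cell type is not stated in the labels. The SPF mice were labelled female and shared slide 1 and scan 1, whereas the GF mice were labelled male and shared slide 2 and scan 2. A housing difference thus cannot be told apart from one of slide, of scan or of sex as labelled; WT and KO were compared within the same slide. With 1 array per group no difference has a replicate check, so values and differences are described without a p-value.

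The unfolded protein response starts when unfolded proteins accumulate in the ER and engage the sensors Ern1 (IRE1), Eif2ak3 (PERK) and Atf6. Ern1 splices the Xbp1 messenger RNA, and spliced Xbp1 and cleaved Atf6 switch on chaperones, folding enzymes and the machinery that degrades misfolded proteins. Eif2ak3, together with kinases that sense amino acid shortage, viral RNA or haem shortage, phosphorylates the translation factor eIF2α, which lowers protein synthesis in general but favours the translation of Atf4; this shared step is the integrated stress response. Secretory cells such as plasma cells and goblet cells keep the Xbp1 side active, and dendritic cells are known for a constitutively active IRE1 and Xbp1 pathway. The arrays measured messenger RNA only, so they hold no value for Atf4 translation, eIF2α phosphorylation or Xbp1 splicing.

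Between 13797 and 15055 named genes were above background on each array. Levels are log2 of the scanner's processed signal minus the array's 75th percentile, and a level is compared between arrays for the same probe only. A difference is that of 2 such log2 levels, taken as KO minus WT for genotype and as GF minus SPF for housing. Probes printed in 8 or more spots differed within an array by a median SD of 0.0903 to 0.0996, which covers spot-to-spot error only. The Cd300a probe read 7.88 (WT SPF), 7.91 (KO SPF), 7.60 (WT GF) and 8.05 (KO GF), but the sources used here do not say whether it lies in the deleted part, so it is no check of the genotype labels. Xist, which is transcribed from the inactive X chromosome, was above background on the KO GF array (3.62) but not on the WT GF array, although both groups were labelled male. The Y-linked Ddx3y, Uty, Eif2s3y and Kdm5d were above background on both GF arrays. On the KO SPF array, from a group labelled female, Eif2s3y was above background (-2.57), but Ddx3y (-5.91), Uty (-5.90) and Kdm5d (-4.84) were not. Whether the sex labels match the animals in each pool is not known. Under GF housing genotype cannot be told apart from the Xist difference between the arrays. Each of these arrays is the only one of its group, so no comparison can be given without it. Markers of dendritic cells were above background for 15 of 15 genes on both SPF arrays and for 14 of 15 on both GF arrays, where Xcr1, a marker of type 1 dendritic cells, was not. Summed over their markers, macrophages and monocytes read 341.2 to 728 times the 75th percentile, and T and innate lymphoid cells 16.7 to 44.6. Fibroblasts and muscle read 22.1 to 34.4, endothelium 8.34 to 25.3, neutrophils and eosinophils 195.4 to 347.1 and mast cells 2.81 to 3.09. Most of the neutrophil and eosinophil sum was the signal of Csf3r. In log2, Csf3r read 8.29 (WT SPF), 8.41 (KO SPF), 7.59 (WT GF) and 8.02 (KO GF), beside sums of 8.37, 8.44, 7.61 and 8.02.

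The promoters of some members carry letters known as response elements of Atf4 or of the ER stress factors, and these stretches are shown here because the branches are named after those factors. The window from 250 bases before to 50 after the start was available for 10 of 10 members in the RefSeq promoter table (GRCm38.p6). Both strands were searched for the C/EBP-ATF element TGATGNAA, bound by Atf4 with a C/EBP partner; it occurred in 3.97% of 32851 promoters and in those of Trib3, Chac1, Asns and Herpud1. The ER stress element, CCAAT and CCACG 9 bases apart, is bound by NF-Y with Atf6 and occurred in 0.119% of promoters and in that of Hspa5. A related element, ATTGG and CCACG 1 base apart, occurred in 0.0365% of promoters and in that of Herpud1. Neither the Xbp1 element TGACGTGG (0.676% of promoters) nor the cyclic AMP element TGACGTCA (1.79%) occurred in a member's window. These stretches run 5′ to 3′ on the gene's strand, with the matched letters in capitals.
Chac1, chr2:119351029-119351076, plus strand, element on the opposite strand: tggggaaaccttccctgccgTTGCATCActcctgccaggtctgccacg
Asns, chr6:7693210-7693252, minus strand: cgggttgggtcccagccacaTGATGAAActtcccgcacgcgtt
Hspa5, chr2:34772005-34772063, plus strand: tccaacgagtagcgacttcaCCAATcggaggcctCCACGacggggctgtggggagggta
Herpud1, chr8:94386297-94386407, plus strand: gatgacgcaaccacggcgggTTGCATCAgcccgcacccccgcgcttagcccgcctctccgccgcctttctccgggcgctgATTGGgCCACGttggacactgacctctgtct

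The Chac1 match lay at -193 to -186 from the gene start and the Asns match at -23 to -16. In Herpud1, the C/EBP-ATF match at -112 to -105 and the ER stress element II match at -52 to -42 stood in the same stretch, so this gene of the chaperone branch holds matched letters of both kinds. The Hspa5 match covered -65 to -47. In Trib3 the matched letters, TTACATCA, stood at positions 14 to 21 after the start, counting the first transcribed base as 0. No element was found in the windows of Atf4, Ddit3, Xbp1, Sdf2l1 and Dnajb9.

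Under SPF housing, all 10 genes read higher on the KO-labelled array than on the WT array, as did 44.3% of all genes measured on this pair. The highest differences were those of the Atf4 targets Chac1, Asns and Trib3. At least 2-fold higher were 3 of 10 members, all of the Atf4 branch, against 5.61% of the 14877 genes measured on this pair; none was at least 2-fold lower, against 6.61%. The median difference was 1.37 in the Atf4 branch and 0.54 in the chaperone branch, beside -0.06 over all genes measured. That comparison addresses what loss of CD300a does to dendritic cells in the presence of a gut microbiota.

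Chac1, which encodes an enzyme that degrades glutathione, read -1.77 (WT SPF), 0.76 (KO SPF), -3.60 (WT GF) and -3.95 (KO GF, not above background). It was thus highest on the KO SPF array, and its SPF difference of 2.53, a 5.76-fold higher signal, exceeded that of 98.99% of genes. Asns, which makes asparagine, read -1.82 (WT SPF), -0.27 (KO SPF), -0.95 (WT GF) and -1.0 (KO GF). Its WT SPF value was the lowest of the 4, and the SPF difference was 1.55 or 2.93-fold. Trib3, a pseudokinase that feeds back on Atf4, read -0.60 (WT SPF), 0.77 (KO SPF), -2.94 (WT GF) and -3.20 (KO GF). Both GF arrays were far below both SPF arrays, and the SPF difference between genotypes was 1.37 or 2.58-fold.

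The upstream factors of that branch differed less. Atf4 itself read 6.81 (WT SPF), 7.07 (KO SPF), 7.07 (WT GF) and 6.32 (KO GF), an SPF difference of 0.26 or 1.20-fold. Its dimmer probe read 4.02, 4.88, 3.5 and 2.56 in the same order, an SPF difference of 0.86. The probes share the sign of the genotype differences but disagree on WT housing, where the first reads 0.26 higher and the other 0.52 lower on the GF array (-0.52). Ddit3, which encodes the death-associated transcription factor CHOP, read 1.41 (WT SPF), 2.03 (KO SPF), 1.84 (WT GF) and 0.56 (KO GF). Its SPF difference was 0.62 or 1.54-fold, above that of 89.2% of genes.

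**Figure D1:**
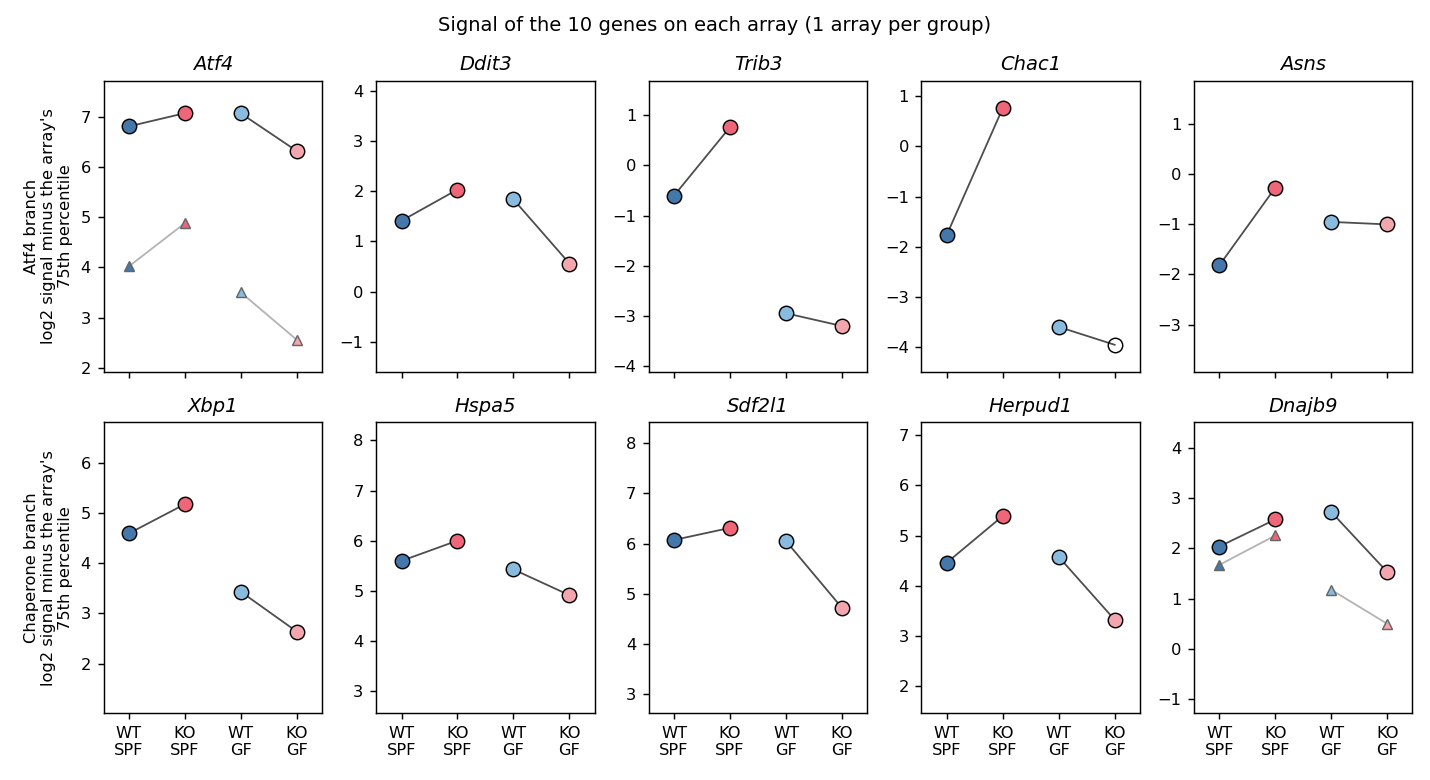
Level of each gene (log2 signal minus the array's 75th percentile) on the 4 arrays; circles are the probe that stands for the gene, triangles the dimmer probe of Atf4 and Dnajb9, an open symbol a value not above background, and lines join the WT and KO arrays of 1 housing. Every panel spans the same number of log2 units, and the SPF line rises in all 10 panels, from 0.24 for Sdf2l1 to 2.53 for Chac1, while the GF line runs downward, nearly flat for Asns (-0.05).

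In the chaperone branch, the SPF differences lay between 0.24 and 0.93, and none reached 2-fold. Herpud1, an ER membrane protein of the degradation machinery, read 4.46 (WT SPF), 5.39 (KO SPF), 4.58 (WT GF) and 3.32 (KO GF). With 0.93 or 1.91-fold it had the highest SPF difference of its branch. Xbp1 read 4.59 (WT SPF), 5.18 (KO SPF), 3.43 (WT GF) and 2.64 (KO GF), a difference of 0.58 under SPF. Its values were higher on both SPF arrays than on either GF array.

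Dnajb9, a J-domain co-chaperone that also restrains IRE1, read 2.04 (WT SPF), 2.58 (KO SPF), 2.73 (WT GF) and 1.53 (KO GF). Its other probe read 1.67, 2.26, 1.17 and 0.50 in that order, so the SPF differences were 0.54 and 0.59. The probes disagree on which array was highest, WT GF for the first and KO SPF for the second. Hspa5 (BiP), the main ER chaperone, read 5.60 (WT SPF), 6.00 (KO SPF), 5.43 (WT GF) and 4.91 (KO GF), and its SPF difference was 0.40. Sdf2l1, a partner of BiP and its co-chaperones, read 6.07 (WT SPF), 6.31 (KO SPF), 6.05 (WT GF) and 4.72 (KO GF). The first 3 of these Sdf2l1 values lay close together, with an SPF difference of 0.24 between genotypes, and the KO GF value stood below them.

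The gap between branches under SPF, 0.83, was therefore carried by Chac1, Asns and Trib3, while Atf4 (0.26) and Ddit3 (0.62) lay within the range of the chaperone branch. All 3 targets read below the 75th percentile on the WT SPF array, and the size of their differences depended on the background correction. With normexp correction of the median signals, Chac1, Trib3 and Asns differed by 1.67, 1.05 and 0.83, which left 2 members at least 2-fold higher and a gap between branches of 0.43. Genes of the same signal range as Chac1 and Asns were at least 2-fold higher in 4.01% of cases, and those of the range of Trib3 in 2.55%.

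Further known Atf4 targets did not move as one group. Of 40 listed genes, 35 were measured on the SPF pair; 5 reached a 2-fold higher signal in the KO-labelled cells, none a 2-fold lower one, and the median was 0.09. The 5 were Slc7a11 (1.96), which imports cystine, Slc7a1 (1.42), which imports cationic amino acids, Mthfd2 (1.13), a mitochondrial folate enzyme, the secreted stress factor Gdf15 (1.0) and Slc7a5 (1.0), which imports large neutral amino acids and was named after its value was seen. Grouped by function after the values were seen, 7 of 7 amino acid transporters were above 0, with a median of 0.82 and a range from 0.22 (Slc1a4) to 1.96. The tRNA synthetases had a median of 0.09 over 9 measured genes and none was 2-fold higher. The transcription factors Atf3, Atf5, Cebpb, Cebpg and Nupr1 were below 0 in 5 of 5 cases, between -0.34 and -0.02.

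Among further ER chaperones and folding enzymes, 18 of 21 measured genes were above 0 on the SPF pair, against 44.3% of all genes. Their median was 0.39 and none was at least 2-fold different. Manf (0.84) and Creld2 (0.78), which are released under ER stress, and the large chaperone Hyou1 (0.75) and the disulfide isomerase Txndc5 (0.56) led this list. Genes of ER-associated degradation and translocation had a median of 0.26 over 27 measured. One of them, Derl3, a derlin of secretory cells, was at least 2-fold higher (2.15), followed by Edem1 (0.92), which marks misfolded glycoproteins for degradation, Sec11c (0.72) and Sel1l (0.68). The sensors and initiation factors had a median of -0.05, from -0.67 for Eif2ak4 (GCN2), the amino acid sensor, to 0.84 for Nfe2l2, a redox transcription factor and PERK substrate, with 0.66 for Ern1.

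B cell and plasma cell markers were also higher on the KO SPF array. Their summed signal was 132.9 times the 75th percentile against 47.1 on the WT SPF array. Of 13 measured markers 7 were at least 2-fold higher, counting Ms4a1, whose bound was 1.65-fold. Among them were Pou2af1 (2.33), a B cell coactivator, and Jchain (2.22), which links secreted IgA and IgM. Summed dendritic cell markers were at 1058 and 1078 on these arrays. Most of that sum was Cd74, H2-Ab1 and H2-Aa, in log2 8.54, 8.41 and 7.97 (WT) and 8.56, 8.47 and 8.03 (KO). Of the 15 dendritic cell markers 2 were at least 2-fold higher, Zbtb46 (1.45, other probe 0.92) and Xcr1 (1.27). T and innate lymphoid markers read 16.7 (WT) and 32.4 (KO), and epithelial markers 3.32 and 6.08. The T and innate lymphoid rise was mostly that of Il7r (2.11 to 4.23 in log2), and 1 of 7 measured was at least 2-fold higher. Of 8 neutrophil and eosinophil markers 5 were at least 2-fold lower on the KO SPF array (median -1.22). The other 3 read higher there: Prg2 (0.84), Csf3r (0.11) and Epx, at least 1.97-fold higher and not above background on the WT array. Their summed signal was 331.3 (WT) and 347.1 (KO), most of it that of Csf3r. Among fibroblast and muscle markers 10 of 10 were below 0 (median -0.72). The part of plasma cell or other RNA in the values of Derl3, Xbp1 and the other genes was not tested. In sorted bulk samples, fewer cells of a type and less RNA per cell cannot be told apart.

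**Figure D2:**
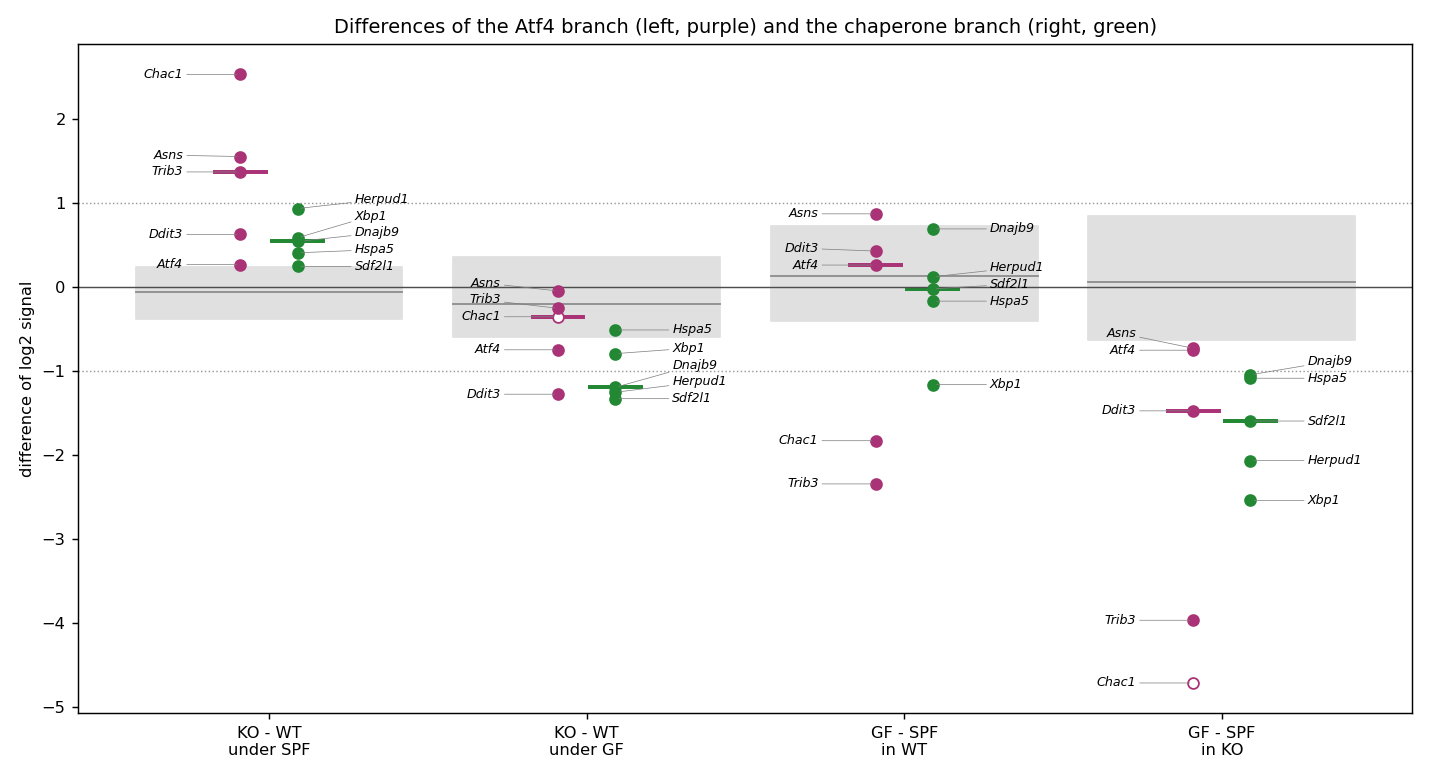
Difference of log2 signal for each member (points; open where 1 array of the pair was not above background) in the 4 comparisons, with the Atf4 branch in purple, the chaperone branch in green, branch medians as coloured bars, the middle of all measured genes as grey boxes (interquartile range) with their median as a grey line, and dotted lines at 2-fold. Under SPF the medians are 1.37 and 0.54; under GF they are -0.36 and -1.20, and the branches lie in the same order.

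Under GF housing, all 10 genes read lower on the KO-labelled array. Only 39% of all genes measured on this pair read higher there, so a lower reading was common. With the scaling of the deposited table Trib3 (0.03) and Asns (0.24) read higher, and Asns (0.16) also with the percentile taken over bright probes. Sdf2l1, Ddit3, Herpud1 and Dnajb9 were lowest here, and the 3 targets that led under SPF lay near the median of all genes. At least 2-fold lower were 4 of 10 members, Ddit3, Sdf2l1, Herpud1 and Dnajb9, against 7.77% of 15697 genes, and none was at least 2-fold higher, against 8.8%. The count fell to 1 with quantile scaling, cyclic loess or the deposited table; with the main scaling these 4 genes lay between -1.20 and -1.33. The question of this comparison is whether the genotype difference is there without a microbiota.

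The median difference was -0.36 in the Atf4 branch, or -0.35 with Chac1 at its bound, and -1.20 in the chaperone branch. The gap between branches was thus 0.84 with the main scaling, beside 0.83 under SPF, so a gap of this size was present on both genotype pairs. All genes measured on this pair had a median of -0.20, so the branches stood at -0.16 and -0.99 relative to it. With the deposited table the median of all genes was 0.08, a shift of 0.29, and 80.0% of all 2-fold calls were higher against 53.1% with the main scaling; relative to all genes the branches stayed at the same values. Taking the percentile over bright probes gave 74.1% higher calls. Bright genes read lower on the KO GF array in general, with a median of -0.41 among the brightest of 4 equal classes of signal, which holds all members of the chaperone branch and Atf4. In that class 7.44% of genes were at least 2-fold lower.

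Within the chaperone branch, Sdf2l1 (-1.33), Herpud1 (-1.26) and Dnajb9 (-1.20, other probe -0.68) were lowest, and Xbp1 (-0.80) and Hspa5 (-0.51) less so. Only 3.28% of genes had a lower difference than Sdf2l1 and 3.87% than Herpud1, while 30.5% had a lower one than Hspa5. In the Atf4 branch, Ddit3 was at -1.28 and Atf4 at -0.75 (other probe -0.94). Chac1 was at least 1.27-fold lower on the KO-labelled array, where it was not above background; Trib3 was at -0.26 and Asns at -0.05. The lowest signal well above background was -3.96 (WT GF) and -3.95 (KO GF), close to the Chac1 values, which limits the difference that this gene could show there.

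Of 38 further Atf4 targets measured on the GF pair, 30 were below 0, 7 were at least 2-fold lower and none was 2-fold higher. Their median was -0.52, and 39% of all genes were above 0 on this pair. Mthfd2 (-1.78), Cebpb (-1.35), a C/EBP factor, Gpt2 (-1.32), which makes alanine, and Gdf15 (-1.10) were lowest among those above background on both arrays; Aldh18a1, a proline synthesis enzyme outside that limit, was at least 2.28-fold lower. Mthfd2 and Gdf15 were among the genes higher on the KO-labelled array under SPF. The further ER chaperones were below 0 for 21 of 21 genes, at a median of -0.67, with Manf (-1.15) and Creld2 (-1.09) at least 2-fold lower. Degradation and translocation genes had a median of -0.63, with the translocon subunit Sec61b at -1.09 and Selenok at -1.02. The eIF2α phosphatase subunit Ppp1r15a (GADD34), an Atf4 and CHOP target, read -1.12, and Eif2ak4 -1.38, while Ern2, the IRE1 form of gut epithelium, was higher at 1.71.

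Heat-shock genes outside the ER, which answer to Hsf1, differed more on this pair than the ER genes. Of 13 measured, 11 were at least 2-fold lower on the KO-labelled array, with a median of -1.46; Hspb1 was at -2.61, Hsph1 at -2.30 and Hspa1a at -2.08. Under SPF the same list had a median of 0.01, which turned to between -0.07 and -0.02 under 4 of the 7 other settings, and none was 2-fold different. On the GF pair, summed epithelial markers were at 261.2 (WT) and 421.0 (KO) times the 75th percentile. Goblet and other secretory cell markers were at 212.9 and 400.2, dendritic cell markers at 795.3 and 482.7, and macrophage markers at 644.7 and 341.2. All 12 goblet and other secretory cell markers read higher on the KO-labelled array, most of all the enteroendocrine gene Chga (3.22). Of 14 dendritic cell markers 13 read lower there. T and innate lymphoid markers (median -0.93, 4 of 8 at least 2-fold lower) and endothelial markers (-0.85, 4 of 8) were lower there too, and the part of this makeup in the members' values was not tested.

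**Figure D3:**
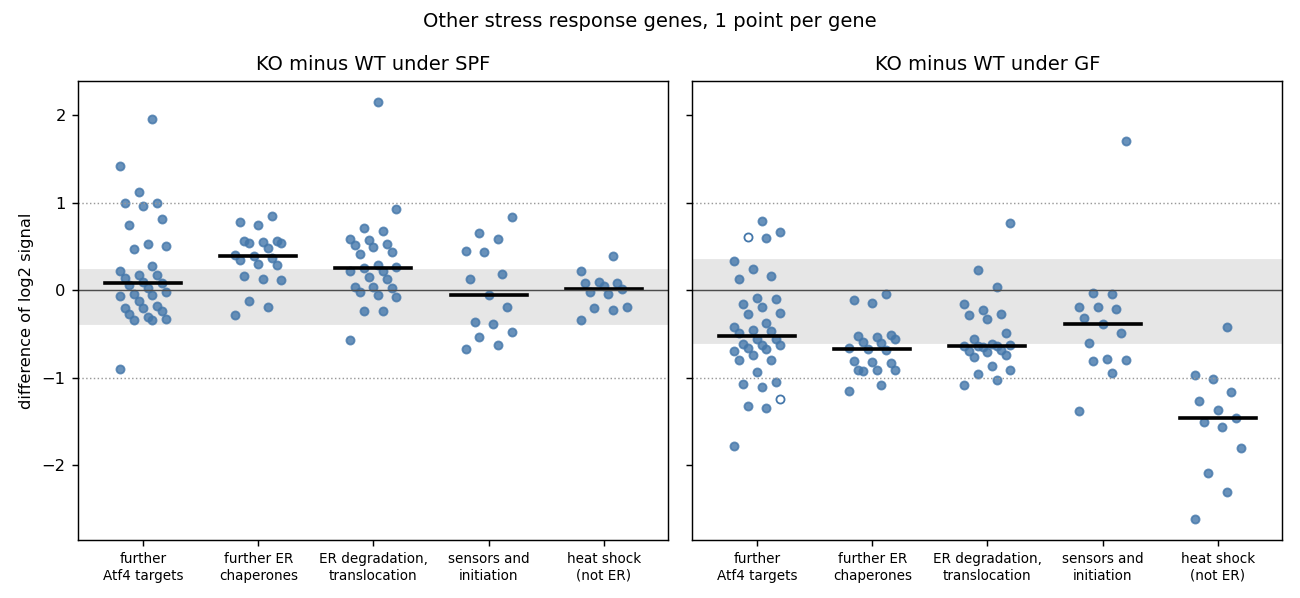
KO minus WT difference of log2 signal for the genes of 5 further lists under SPF (left) and GF (right); points are genes, open where 1 array was not above background, black bars medians, the grey band the interquartile range of all measured genes, and dotted lines 2-fold. Under SPF the ER chaperones sit mostly above 0 (median 0.39) and under GF all 21 sit below it (median -0.67), while the heat-shock genes move from about 0 to -1.46.

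Between WT arrays, Trib3, Chac1 and Xbp1 read lower under GF housing, and the other 7 members lay between -0.17 and 0.87. At least 2-fold lower were 3 of 10 members against 9.44% of 15656 genes, and none was at least 2-fold higher against 17.5%. Trib3 was 5.08-fold lower (-2.35), Chac1 3.56-fold (-1.83) and Xbp1 2.24-fold (-1.16). With normexp, Trib3 was at -0.98 and Chac1 at -0.68, which left Xbp1 as the 1 member at least 2-fold lower. Only 1.78% of genes had a lower difference than Trib3. Asns (0.87) and Ddit3 (0.42) were higher on the GF array, and Dnajb9 was split between its probes (0.69 and -0.50). Hspa5 (-0.17), Sdf2l1 (-0.02, or 0.08 with normexp) and Herpud1 (0.12) were close to 0, and the Atf4 branch ran from -2.35 to 0.87 around a median of 0.26 (-0.13 with the mean of all probes). The further lists lay near 0, at -0.06 for 38 Atf4 targets, of which 6 were 2-fold higher and 6 lower, -0.07 for the ER chaperones and -0.01 for degradation and translocation, while the heat-shock list was at -1.64. On this pair 12 of 12 epithelial markers were at least 2-fold higher on the GF array (median 6.10). Their summed signal was 3.32 on SPF and 261.2 on GF, and that of goblet and other secretory cell markers 7.60 and 212.9. Of 12 measured B cell and plasma cell markers 6 were above 0 and 6 below, with a median of -0.11. Jchain (-4.98) and Pou2af1 (-2.85) were lowest, and Tnfrsf17 (1.70) and Pax5 (1.04) highest. Summed dendritic cell markers read 1058 and 795.3. The part of these cell types in the Xbp1 and other values was not tested.

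Between KO-labelled arrays, all 10 genes were lower under GF housing, while 52% of all genes were above 0. At least 2-fold lower were 8 of 10 against 15.4% of 15572 genes, and none was at least 2-fold higher, against 21.6%. Among genes of the brightest class, 20.8% were at least 2-fold lower. Chac1 was at least 26.1-fold lower and Trib3 15.6-fold lower (-3.97); with normexp their differences were -2.49 and -2.15, so the sizes depend on the background correction. Xbp1 was 5.82-fold lower (-2.54), Herpud1 4.19-fold (-2.07), Sdf2l1 3.03-fold (-1.60), Ddit3 2.78-fold (-1.48), Hspa5 2.13-fold (-1.09) and Dnajb9 2.07-fold (-1.05, other probe -1.76). Atf4 (-0.75, other probe -2.33) and Asns (-0.73) stayed short of 2-fold. The branch medians, -1.48 and -1.60, did not separate, and their order turned with quantile scaling and cyclic loess.

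Many further genes of both branches were lower as well. Of 39 Atf4 targets, 20 were at least 2-fold lower on the KO GF array than on the KO SPF array, with a median of -1.02. At least 2-fold higher were 6, counting Stc2 and Yars, whose bounds were 1.47-fold and 1.31-fold. Mthfd2 (-2.87), Eprs (-2.80), Sesn2 (-2.38), an inhibitor of mTORC1, and Slc7a5 (-2.32, other probe -1.89) were lowest among those above background on both arrays, and Slc7a11 was at least 10.5-fold lower. In the chaperone list 11 of 21 were at least 2-fold lower, led by Creld2 (-2.36) and Hyou1 (-2.19). The heat-shock list had a median of -3.14, with 12 of 13 at least 2-fold lower. Ern1 was at -1.52, whereas Ern2 was higher at 2.49. Of 13 measured B cell and plasma cell markers 7 were at least 2-fold lower and 1 at least 2-fold higher. The plasma cell gene Jchain was at -7.88 and Derl3 at least 20.1-fold lower. Summed epithelial markers went from 6.08 on the KO SPF array to 421.0 on the KO GF array, and 12 of 12 were at least 2-fold higher. Goblet and other secretory cell markers went from 7.87 to 400.2 and dendritic cell markers from 1078 to 482.7. The part of this makeup in the values was not tested. Since the housing comparisons also cross slide, scan and labelled sex, these factors cannot be told apart.

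Over the 4 arrays, 9 of 10 members were highest on KO SPF and 9 of 10 lowest on KO GF; the exceptions were Dnajb9, highest on WT GF by its brighter probe, and Asns, lowest on WT SPF. For the brighter Atf4 probe the KO SPF and WT GF values were equal as printed (7.07), so that probe does not separate these arrays. The dimmer Atf4 probe read 4.88 on KO SPF and 3.5 on WT GF. Of all 12884 genes above background on every array, 21.4% were highest on KO SPF and 40.4% lowest on KO GF. All 10 members were higher on the KO-labelled array under SPF and lower under GF, 9 with the percentile over bright probes and 8 with the deposited table, which 27.8% of 14202 genes also did. The SPF difference exceeded the GF difference by 0.92 for Hspa5, the least, and by 2.88 for Chac1, the most, with a median of 1.61 over the 10. All comparisons that share an array share its error, so these values are not separate evidence.

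Genes with a profile most like a branch were found by the root mean square distance of their 4 values, each centred on the gene's mean, from the centred branch median. For the Atf4 branch these were Adora2b (0.044), an adenosine receptor, Stil (0.080), Specc1l (0.096), St3gal1 (0.098) and Cflar (0.10), an inhibitor of caspase-8, among 12880 genes compared, of which 79 lay within 0.25. For the chaperone branch they were the histone gene H2bc14 (0.043), Coq10b (0.044), Tnfrsf13c (0.055), the BAFF receptor of B cells, Rcbtb2 (0.080) and Glipr1 (0.085), with 183 genes within 0.25. With 4 arrays such likeness is a description of these arrays.

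The promoter elements can be set beside the signals of all genes that hold them. On the SPF pair, 9.50% of 379 measured genes with a C/EBP-ATF match had a 2-fold or higher signal in KO-labelled cells, against 5.50% of 11844 measured genes with a promoter in the table, and the medians were equal at -0.06; 7.12% were at least 2-fold lower against 6.35%. The Xbp1 element, found in no member, gave a like share, 9.84% of 122 genes 2-fold higher. On the GF pair, 13.1% of 404 such genes were at least 2-fold lower against 7.80%. The 19 genes with an ER stress element had a median of 0.39 under SPF against -0.06 and -0.51 under GF against -0.21, and 20 such genes stood at -0.83 between KO-labelled arrays, with 45.0% at least 2-fold lower. These sets include Chac1, Asns, Trib3, Herpud1 and Hspa5 and several listed chaperones, of which 6 of 19 with a promoter held the ER stress element. Among further Atf4 targets 12 of 32 held the C/EBP-ATF match, and the targets with a match were not those that differed more under SPF: their median was 0.09 over 9 genes against 0.14 over 19 without one. Under GF the medians were 0.02 over 10 and -0.66 over 20.

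**Figure D4:**
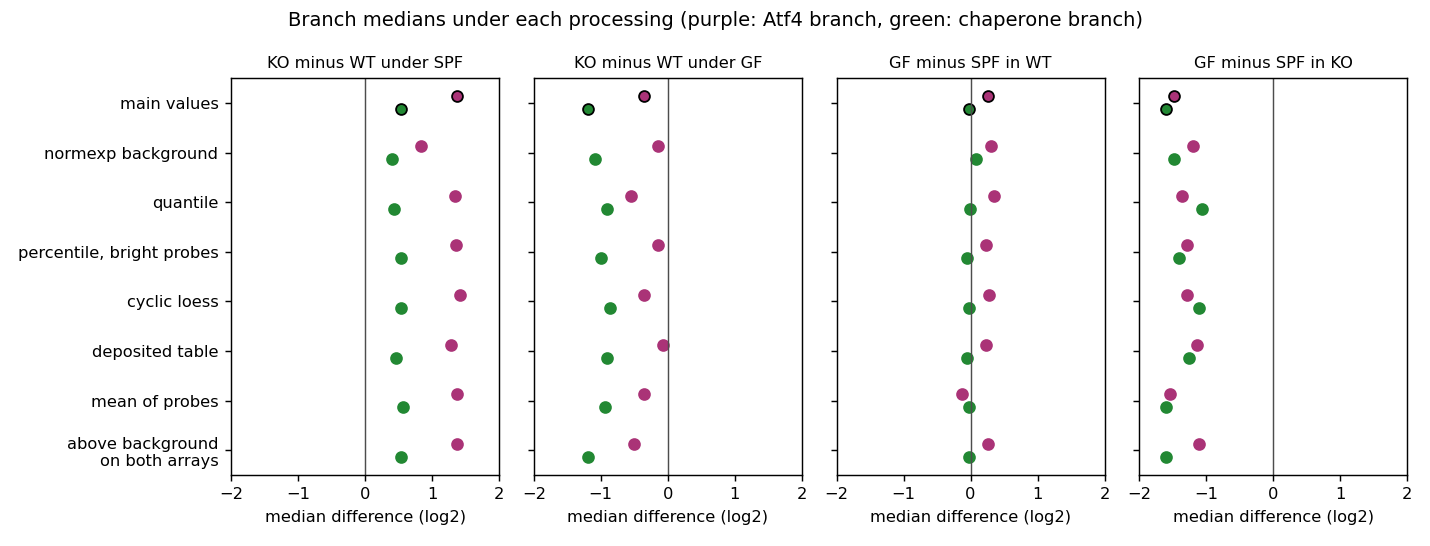
Median difference of each branch (horizontal axis, log2; purple for the Atf4 branch, green for the chaperone branch) in the 4 comparisons with the main processing (top, outlined) and under 7 alternatives. Under SPF both medians stay above 0, with the Atf4 branch between 0.83 and 1.42 and the chaperone branch between 0.40 and 0.56; under GF both stay below 0; in WT housing both lie near 0 and change sign under 1 alternative each.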

How the data were processed

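Total RNA was turned into amplified cDNA and labelled with Cy3, per the labels' protocols. Per the file headers, the 1-colour Agilent arrays (design build mm9) were extracted by the scanner software (Feature Extraction 10.10.1.1, protocol GE1_1010_Sep10), which gives a background-subtracted processed signal intensity per spot, not scaled between arrays. A deposited table holds intensity values equal to that signal times 8.30, 8.24, 7.08 and 7.96 for WT SPF, KO SPF, WT GF and KO GF (column medians 237.2, 216.3, 235.7 and 331.4), on a linear scale with no centring; how the factors were set is unknown.

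Computed here were log2 of the processed signal minus each array's 75th percentile, without 3671 control spots and spots flagged as outliers, with spots of a probe averaged. Accessions named 27191 of 55681 probes through RefSeq (GRCm38.p6). A probe counted as above background where the scanner software flagged the majority or an equal share of its spots so. Differences use genes above background on at least 1 array of a pair. For a named gene with 1 array below, the text gives a bound. It was taken from the higher of the dim probe's own value and the lowest signal above background on the dim array. Counts and medians use the measured difference, not the bound. The 2-fold counts thus include Ms4a1 (SPF, bound 1.65-fold), Cd3g (GF, 1.15), Cdx2 (WT housing, 1.65), and Stc2 (1.47) and Yars (1.31) in KO housing. Limma 3.58.1 (R 4.3.3) gave the normexp, quantile and cyclic loess alternatives; normexp used the median spot signals, as the mean signals are not used here. Figures were drawn with matplotlib 3.10.9.

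The members and gene lists were chosen with earlier results of these data known. Of 243 listed symbols, 240 were measured, 3 through a synonym. Besides all members, the rule names the 4 genes of each pathway list with the largest difference and 2 at each end of a marker list.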

Additional observations from a re-analysis of the deposited data

Results flagged for a closer look

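With the main scaling, each of the 10 members differed between genotypes in opposite directions under the 2 housings. All were higher on the KO-labelled array under SPF and lower under GF, 9 with the percentile over bright probes and 8 with the deposited table. With 1 array per group the difference between housings was not tested. In the Atf4 branch, the SPF difference minus the GF difference was 1.01 for Atf4, 1.90 for Ddit3, 1.62 for Trib3, 2.88 for Chac1 and 1.60 for Asns. In the chaperone branch it was 1.38 for Xbp1, 0.917 for Hspa5, 1.57 for Sdf2l1, 2.19 for Herpud1 and 1.73 for Dnajb9. The opposite direction rests for Asns on a GF difference of -0.05 and for Trib3 on one of -0.26. For Chac1 it rests on one of -0.36, with the KO GF value not above background, and its value of 2.88 uses that reading. The same pattern of signs was present in 27.8% of 14202 genes.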

How the results depend on the processing

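Medians and differences were taken as unmoved when they shifted by less than the median absolute difference between a gene's 2 brightest probes (0.25 under SPF, 0.27 under GF, 0.55 in WT and 0.53 in KO housing), and counts when they stayed within 1.5 times. Under SPF both branch medians and all 10 members stayed above 0 in each of the 7 alternatives; normexp lowered the Atf4 branch to 0.83 and the gap to 0.43. Under GF both medians stayed below 0. The Atf4 branch was -0.0704 with the deposited table; the chaperone branch was -0.91 with quantile scaling, -0.86 with cyclic loess and -0.91 with the deposited table, each leaving 1 gene 2-fold lower, and the gap was 0.37 with quantile scaling and 0.50 with cyclic loess. Signs turned there for Trib3 (0.0310, deposited table), for Asns (0.16, percentile over bright probes; 0.24, deposited table) and for the median of 3 phosphatase genes (0.0248, cyclic loess). In WT housing the Atf4 branch and Atf4 turned to -0.13 and the gap to -0.11 with the mean of all probes, the chaperone branch and Sdf2l1 to 0.0767 with normexp, which left 1 gene 2-fold lower, and the degradation list to 0.0584 (normexp), 0.0933 (mean of probes) and 0.0830 (genes above background on both arrays). In KO housing the gap turned to -0.29 with quantile scaling and -0.17 with cyclic loess. Under SPF the sensors turned to 0.0495 with normexp and the heat-shock list to -0.0694 (quantile), -0.0713 (deposited table), -0.0245 (cyclic loess) and -0.0157 (mean of probes). The median of the SPF minus GF difference, an alternative chosen after seeing the data, was 1.24 with the deposited table. The cause of these shifts was not tested. The share of all genes at least 2-fold higher and lower was 1.20% and 0.618% (SPF), 1.83% and 2.25% (GF), 6.38% and 2.82% (WT) and 7.78% and 8.07% (KO) with normexp. In the deposited values, 14.6% were higher and 3.64% lower under GF, and 29.6% and 9.64% in KO housing, where the median of all genes shifted by 0.34 and 75.4% of calls were higher against 58.4%. With the percentile over bright probes 68.4% of calls were higher in KO housing and 4.47% of genes lower under GF. Under SPF normexp moved the share of calls that were higher from 45.9% to 66.1%, and genes above background on both arrays moved it to 56.5%. Each genotype difference was taken within a slide; a fit over both slides with slide as a block, which leaves 1 residual degree of freedom, was not run. Signal limits Chac1 and Trib3 on the GF arrays, where the scanner error of a single spot reached 25.6% of its signal.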
